A study of Rattus norvegicus with 138 samples.

Results

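The insulin-like growth factor (IGF) system is described here through 10 genes, chosen by symbol from the 16181 gene symbols used in the table of TPM values, in which the transcripts of each library, corrected for their length, add up to a fixed total. They are the 2 ligands Igf1 and Igf2, the receptors Igf1r and Igf2r, and the binding proteins Igfbp2, Igfbp3, Igfbp4, Igfbp5, Igfbp6 and Igfbp7. All 10 passed the filter on low values, a group mean above 1 TPM in at least 1 group.

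The study followed volumetric muscle loss (VML), a defect too large for skeletal muscle to refill by its own repair, in the tibialis anterior (TA), the muscle at the front of the shin. A 6-mm biopsy punch removed the full thickness of the middle of the left TA of inbred male Lewis rats aged about 4 months, and some rats received an autologous minced muscle graft (MMG), prepared from the tissue that had been excised. Muscles were taken at 3, 7, 14 and 28 days post injury (DPI), and part of the rats carried a running label whose kind and duration are not given in the sources used here. RNA from whole muscle was sequenced.

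The controls were 4 uninjured TA muscles, the left and right of 2 rats labelled Sham at day 0, without graft or running. Without repair and without running there were 3, 8, 4 and 4 injured muscles at 3, 7, 14 and 28 DPI, and 2, 4, 2 and 2 contralateral muscles, the unoperated TA of operated rats. With a graft and without running there were 7, 8, 4 and 4 injured and 2, 6, 2 and 2 contralateral muscles. In running rats without repair there were 8, 4, 4 and 2 injured muscles, and with a graft 6, 4, 4 and 2, with 2 contralateral muscles in each arm at 3, 7 and 14 DPI. Together these were 114 muscles of 78 rats in 31 groups. Replicates were separate rats except among the controls, and the control rats carry another number series than the operated rats, so that series and injury cannot be told apart in any comparison with the controls. The rat numbers of the operated rats, read from the labels, fall into 4 ranges, 1 to 32, 73 to 88, 91 to 108 and 125 to 144, and what the ranges stand for is not given in the sources used here. Injured muscles without repair or running all came from the lowest range at 3 DPI, from the highest at 14 DPI, and from the range 73 to 88, which no other day shares, at 28 DPI, while the 8 muscles at 7 DPI comprised 4 from the lowest range, 2 from the range 91 to 108 and 2 from the highest. Day and number range therefore cannot be told apart in the comparisons of 28 DPI with 3 or 14 DPI.

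IGF1 and IGF2 are small secreted proteins related to insulin that signal through the IGF1 receptor, a tyrosine kinase, to the PI3K-AKT-mTOR and MAPK routes. In muscle IGF1 is known for promoting protein synthesis, myoblast proliferation and differentiation, and IGF2 for its production by differentiating myoblasts. The IGF2 receptor, which is also the cation-independent mannose 6-phosphate receptor, carries IGF2 to lysosomes, and the binding proteins hold the ligands outside the cell, where proteases release them.

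The RefSeq promoters of 10 of the 10 genes were found, in 11 entries of build GRCr8, each running from 250 bases before to 50 bases after an annotated start. Those of both ligands are printed because their time courses parted, and those of Igfbp4 and Igfbp6 because these showed the largest ratios to control among the 10 genes at 7 DPI. Capitals mark matches, on either strand, to 1 of 5 short motifs, the E-box CAGCTG, the TATA box TATAAA, the GC box GGGCGG, the AP-1 site TGANTCA and the CCAAT box. Igf1 lies at chr7:24172282-24172581 on the plus strand, the 2 Igf2 entries at chr1:207253931-207254230 and chr1:207250426-207250725 on the minus strand, Igfbp4 at chr10:84491221-84491520 on the plus strand and Igfbp6 at chr7:135154669-135154968 on the plus strand.
Igf1: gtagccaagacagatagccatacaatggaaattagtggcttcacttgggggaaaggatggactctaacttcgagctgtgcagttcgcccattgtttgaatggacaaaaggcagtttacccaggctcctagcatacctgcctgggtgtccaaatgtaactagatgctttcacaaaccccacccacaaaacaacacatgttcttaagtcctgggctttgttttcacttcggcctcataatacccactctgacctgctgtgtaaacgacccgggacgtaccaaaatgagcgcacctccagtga
Igf2, first entry: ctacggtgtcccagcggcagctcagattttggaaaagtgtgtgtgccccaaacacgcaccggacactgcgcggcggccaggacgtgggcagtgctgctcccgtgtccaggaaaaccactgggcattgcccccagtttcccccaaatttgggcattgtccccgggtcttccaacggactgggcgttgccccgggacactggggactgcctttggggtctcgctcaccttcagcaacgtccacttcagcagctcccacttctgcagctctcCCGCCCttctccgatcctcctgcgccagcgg
Igf2, second entry: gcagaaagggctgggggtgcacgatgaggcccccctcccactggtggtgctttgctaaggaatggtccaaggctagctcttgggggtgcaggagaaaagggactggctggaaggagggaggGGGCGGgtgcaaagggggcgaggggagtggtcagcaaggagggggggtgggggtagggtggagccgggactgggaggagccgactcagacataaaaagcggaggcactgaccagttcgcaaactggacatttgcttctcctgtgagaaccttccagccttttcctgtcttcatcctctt
Igfbp4: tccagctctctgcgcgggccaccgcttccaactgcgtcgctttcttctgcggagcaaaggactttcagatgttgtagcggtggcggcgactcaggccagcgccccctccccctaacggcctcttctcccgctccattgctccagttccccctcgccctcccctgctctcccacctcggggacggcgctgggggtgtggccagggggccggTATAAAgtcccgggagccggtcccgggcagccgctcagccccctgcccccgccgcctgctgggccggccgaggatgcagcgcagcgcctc
Igfbp6: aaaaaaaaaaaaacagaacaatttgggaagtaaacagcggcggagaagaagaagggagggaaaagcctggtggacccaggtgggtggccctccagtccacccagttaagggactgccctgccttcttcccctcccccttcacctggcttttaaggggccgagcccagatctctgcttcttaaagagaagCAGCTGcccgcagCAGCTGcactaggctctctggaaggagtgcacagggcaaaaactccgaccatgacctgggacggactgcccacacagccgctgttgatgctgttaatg

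None of the 5 motifs occurred in the Igf1 window. The Igf2 windows each held 1 GC box, at position 20 in the first entry, on the opposite strand, and at position -129 in the second. Igfbp4 held a TATA box at position -40, and Igfbp6 held E-boxes at positions -61 and -48. Among the others, Igf1r and Igfbp2 each held 1 GC box, Igf2r held 2 and Igfbp7 held 4, while Igfbp3 and Igfbp5 held none of the 5 motifs. Of 33469 rat promoter windows of the same length, 33.1% held the GC box, 15.1% the E-box, 14.2% the TATA box, 37.5% the CCAAT box and 7.33% the AP-1 site. No AP-1 site or CCAAT box was found in the 11 windows.

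Depth cannot be read from TPM, so the complexity of a library stands in for it. Of 129 libraries with a group, 13 showed only 901 to 5712 symbols above 1 TPM and were left out, and the 116 kept showed 7866 to 10948. The defining markers of mature fast fibers were present in every group (10 of 10 above 1 TPM), so the tissue matched its label. Their summed TPM went from 179585 to 229357 in control muscles to 35563 to 47788 in injured muscles at 3 DPI and 48429 to 108304 at 7 DPI, and 10 of 10 fiber markers were lower than control at 3 DPI. Summed macrophage and leukocyte markers went from 15.1 to 35.8 in controls to 4447 to 5852 at 3 DPI and 598 to 2861 at 7 DPI. Summed fibroblast markers went from 85.0 to 252 in controls to 5273 to 9418 at 3 DPI and 7516 to 22163 at 7 DPI. Summed markers of regenerating muscle went from 49.5 to 85.7 in controls to 3809.7 to 4744 at 3 DPI and 3539 to 7915 at 7 DPI, with 8 of 9 called higher than control at 3, 7 and 14 DPI and 9 of 9 at 28 DPI. Of the adipocyte markers 0 of 4 were called at 3, 7 or 14 DPI and 4 of 4 were called higher at 28 DPI, where their sum was 11.8 to 39.8 against 2.02 to 3.68 in controls. The part of these shifts in the IGF values below was not tested. In whole muscle, fewer cells of a type and less RNA per cell cannot be told apart.

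Igf1 rose early and stayed raised. It was measured at 3.23, 3.51, 3.9 and 4.23 TPM in the 4 control muscles. Injured muscles without repair held 46.8, 61.1 and 85.3 TPM at 3 DPI, 36 to 99.7 with a median of 67.6 TPM at 7 DPI, 31.8, 32.1, 43.5 and 45.3 TPM at 14 DPI and 18.7, 22.4, 24 and 32.8 TPM at 28 DPI. Every injured muscle exceeded every control at each day, and every contralateral muscle, which ranged over 6.61 to 11.3, 5.04 to 7.38, 3.73 to 4.92 and 4.57 to 5.19 TPM at the 4 days. The mean TPM was 17.3-fold that of control at 3 DPI and 18.2-fold at 7 DPI, and 6.58-fold at 28 DPI. On the log2(TPM + 1) scale, which understates changes of low genes, the differences from control were 3.76 ± 0.26 (SE), 3.79 ± 0.21, 3.04 ± 0.24 and 2.41 ± 0.24 (limma, Benjamini-Hochberg adjusted p = 5.78e-24, 5.16e-30, 9.2e-20 and 1.12e-14). Between 3 and 28 DPI Igf1 fell by 1.35 on the log2 scale in injured muscle (adjusted p = 3.53e-06), a call lost with size factors (-0.87), under which the 4 differences from control stayed called at 2.74, 2.84, 2.48 and 1.86. Number ranges also differ between 3 and 28 DPI, and within 7 DPI Igf1 averaged 81.6, 68.0 and 39.3 TPM in the muscles of the lowest range, the range 91 to 108 and the highest.

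Igf2 followed another course. Control muscles held 28, 29.5, 30.5 and 31.2 TPM, several times the Igf1 level of the same muscles. After injury without repair it stood at 33.8, 44.9 and 99.5 TPM at 3 DPI, 224 to 485 with a median of 346 TPM at 7 DPI, 292, 311, 312 and 325 TPM at 14 DPI and 162, 173, 218 and 232 TPM at 28 DPI. At 3 DPI the values began just above those of the controls, and from 7 DPI on the lowest injured muscle was far above the highest control. The difference from control was 0.82 ± 0.32 at 3 DPI, which did not reach the call (an adjusted p below 0.05 with a log2 change beyond 1; adjusted p = 0.0156), and 3.47 ± 0.26, 3.33 ± 0.30 and 2.66 ± 0.30 at 7, 14 and 28 DPI (adjusted p = 3.49e-22, 4.41e-17 and 1.2e-12). Under median-of-ratios size factors the value at 3 DPI was -0.31, with the opposite sign. On the deposited scale it was 1.14 and called without injured replicate 1 at that day, and 0.37 and not called without injured replicate 2 (adjusted p = 0.321). Between 3 and 7 DPI Igf2 rose by 2.66 in injured muscle with no overlap of the groups (adjusted p = 2.36e-12), the largest change of the 10 genes between those days. With the number range as a covariate the rise was 2.54 (adjusted p = 2.06e-11), and the 4 muscles at 7 DPI from the same range as those at 3 DPI held 224 to 409 TPM. At 28 DPI it was still 1.85 above the level at 3 DPI (adjusted p = 4.47e-07).

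**Figure D1:**
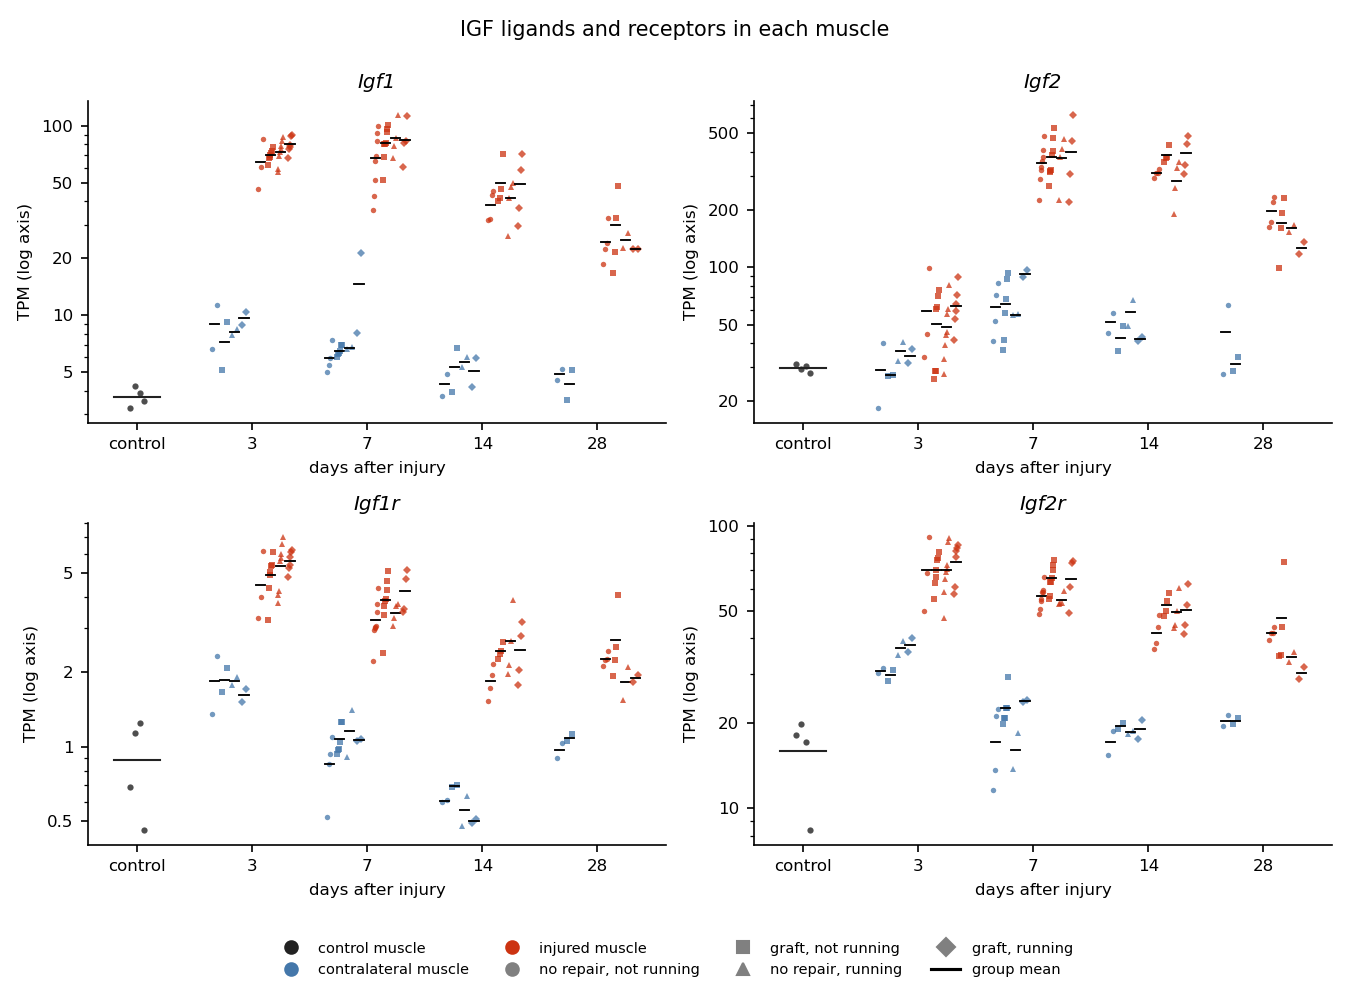
TPM on a log axis of Igf1, Igf2, Igf1r and Igf2r in each of the 114 muscles, by day (control, 3, 7, 14 and 28 DPI), with black for control, blue for contralateral and red for injured muscles. Circles are no repair and squares graft, both without running, triangles no repair and diamonds graft, both with running, and dashes are group means. Igf1 is high from 3 DPI on, whereas injured Igf2 at 3 DPI is 33.8 to 99.5 TPM without repair or running, against 28 to 31.2 TPM in controls, and climbs at 7 DPI.

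The balance of the ligands changed between 3 and 7 DPI. The log2 ratio of Igf2 to Igf1 in a muscle, taken on TPM + 1, was 2.71 ± 0.16 (SD, n = 4) in controls. In injured muscle without repair or running it was -0.23 ± 0.39 (n = 3) at 3 DPI, 2.40 ± 0.50 (n = 8) at 7 DPI, 3.01 ± 0.23 (n = 4) at 14 DPI and 2.97 ± 0.22 (n = 4) at 28 DPI. Igf1 thus made up 11.1% ± 1.30 of the summed ligand TPM in controls, 54.0% ± 6.77 at 3 DPI and 16.3% ± 4.79 at 7 DPI. The contralateral ratio at 3 DPI was 0.65 to 2.43, below every control (2.55 to 2.93). Within the lowest range of rat numbers its mean over 2 muscles went from 1.83 at 3 DPI to 3.46 at 7 DPI with a graft alone. It went from 2.03 to 2.9 with running alone and from 1.74 to 2.72 with both. Without repair or running the days overlapped (highest 2.43 at 3 DPI, lowest 2.33 at 7 DPI). This contralateral change was not tested.

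The step in injured muscle, chosen with its values known, was tested separately in the 4 injured arms. The ratio was higher at 7 than at 3 DPI by 2.62 without repair or running, 2.69 with running alone, 2.78 with a graft alone and 2.52 with both. Two-sided exact permutation tests over muscles gave p = 0.0121, 0.00404, 0.000311 and 0.00952, each the smallest the group sizes allow, and 0.0121, 0.00808, 0.00124 and 0.0121 after Benjamini-Hochberg adjustment over the 4 tests. In no arm did the days overlap, the highest muscles at 3 DPI standing at 0.22, 0.48, 0.05 and 0.19 and the lowest at 7 DPI at 1.67, 0.97, 1.38 and 1.84. Within the lowest range of rat numbers, which held muscles of both days in all 4 arms, the ratio was at most 0.22, -0.32, 0.04 and -0.31 at 3 DPI and at least 1.67, 0.97, 1.38 and 1.84 at 7 DPI.

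**Figure D2:**
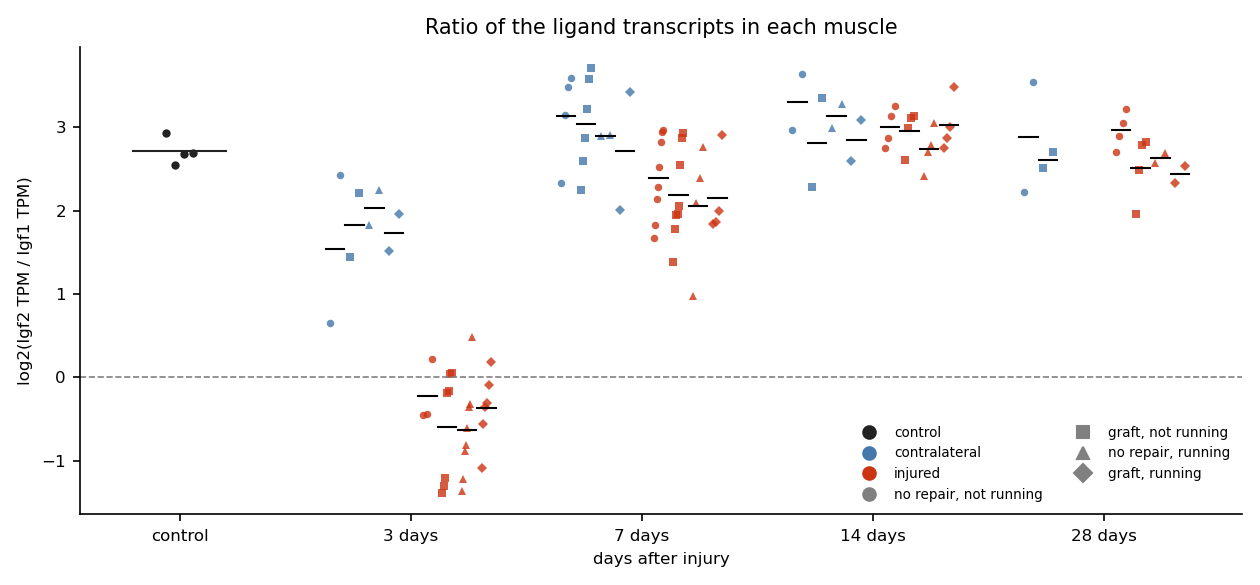
Log2 ratio of Igf2 to Igf1, on TPM + 1, in each muscle by day, with colors and symbols as in the plot of ligands and receptors and a dashed line at 0, where both ligands have equal TPM. Controls sit between 2.55 and 2.93. Injured muscles at 3 DPI run from -1.39 to 0.48 with the mean of each arm below 0, and contralateral muscles at 3 DPI from 0.65 to 2.43. From 7 DPI on all injured muscles are above 0.

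The signaling receptor Igf1r was low throughout. Controls held 0.46, 0.69, 1.14 and 1.25 TPM. Without repair the injured muscles reached 3.31, 4.03 and 6.17 TPM at 3 DPI, 2.22 to 4.37 with a median of 3.06 TPM at 7 DPI, 1.53, 1.73, 1.94 and 2.16 TPM at 14 DPI and 2.11, 2.23, 2.26 and 2.44 TPM at 28 DPI, above every control at each day. Igf1r rose by 1.53 ± 0.17 at 3 DPI and 1.18 ± 0.13 at 7 DPI (adjusted p = 4.09e-14 and 2.01e-13), and differed by 0.61 and 0.81 at 14 and 28 DPI, below the call. With size factors the 4 differences were 0.85, 0.57, 0.28 and 0.50, and none was called.

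Igf2r, the receptor that clears IGF2, held 8.36, 17.1, 18.2 and 19.9 TPM in controls. In injured muscle without repair it was measured at 50.1, 68 and 91.1 TPM at 3 DPI, 48.8 to 66 with a median of 56.8 TPM at 7 DPI, 36.7, 38.7, 44 and 48.4 TPM at 14 DPI and 39.4, 41.7, 41.9 and 44 TPM at 28 DPI, with no overlap with control. The differences were 2.09 ± 0.19, 1.82 ± 0.15, 1.40 ± 0.17 and 1.40 ± 0.17, all called (adjusted p = 9.72e-18, 1.12e-19, 2.98e-11 and 5.16e-11). With size factors they were 0.98, 0.79, 0.75 and 0.77, all under the fold threshold. The median of all tested genes stood at 0.96, 0.91, 0.53 and 0.52 above control at the 4 days before such scaling, so that relative to the median gene Igf1r was at 0.26 and Igf2r at 0.91 at 7 DPI, against 2.87 for Igf1 and 2.56 for Igf2.

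Among the binding proteins, Igfbp4, Igfbp5, Igfbp6 and Igfbp7 rose most. Igfbp4, an inhibitory binding protein cleaved by pappalysin-1, held 4.32, 7.5, 7.84 and 8.16 TPM in controls. Injured muscles without repair held 75.5, 88.7 and 104 TPM at 3 DPI, 97.5 to 295 with a median of 209 TPM at 7 DPI, 73, 83.8, 91.4 and 120.5 TPM at 14 DPI and 38.6, 40.1, 54.1 and 55.7 TPM at 28 DPI, all far above control. Its mean TPM at 7 DPI was 29.3-fold that of control, the largest ratio of the 10 genes. The differences were 3.52 ± 0.33, 4.59 ± 0.26, 3.56 ± 0.30 and 2.61 ± 0.30 (adjusted p = 3.66e-17, 5.68e-29, 3.69e-18 and 4.08e-12). Igfbp4 also rose by 1.07 from 3 to 7 DPI (adjusted p = 0.00195), which became 0.95 and was not called without injured replicate 3 at 3 DPI, and was 1.31 with the number range as a covariate (adjusted p = 0.000102). From 7 to 14 DPI it fell by 1.03 (adjusted p = 0.000387). That fall was not called with size factors, with all libraries kept (-0.67), without injured replicate 1 or 2 at 14 DPI or with the number range as a covariate (-0.76, adjusted p = 0.0121). The 14 DPI muscles all came from the highest range, whose 2 muscles at 7 DPI held 97.5 and 103 TPM, against 221 to 295 TPM in the 4 of the lowest range.

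Igfbp6, whose product prefers IGF2 over IGF1, held 14.3, 19, 19.6 and 22.7 TPM in controls. After injury without repair it stood at 169.9, 323 and 481 TPM at 3 DPI, 243 to 571 with a median of 420.0 TPM at 7 DPI, 239, 246, 250.3 and 334 TPM at 14 DPI and 191, 222, 247 and 277 TPM at 28 DPI. The lowest injured muscle stood several times above the highest control at every day. The differences were 3.92 ± 0.36, 4.31 ± 0.29, 3.76 ± 0.33 and 3.57 ± 0.33 (adjusted p = 2.33e-17, 9.87e-25, 2.99e-17 and 7.63e-16). At 28 DPI its mean was still 12.4-fold that of control, the largest ratio of the 10 genes at that day.

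Igfbp5, which binds extracellular matrix and is expressed in differentiating muscle cells, had the highest mean TPM of the 10 genes in controls, which held 39, 58, 68.2 and 72.7 TPM, although Igfbp7 was higher in control replicate 3. Injured muscles without repair held 159, 334 and 409 TPM at 3 DPI, 413 to 1012 with a median of 627 TPM at 7 DPI, 330.4, 339.7, 399 and 513 TPM at 14 DPI and 298, 299.9, 359 and 438 TPM at 28 DPI, with no overlap with control. The differences were 2.25 ± 0.34, 3.44 ± 0.27, 2.73 ± 0.31 and 2.55 ± 0.31 (adjusted p = 4.29e-09, 6.39e-21, 1.44e-12 and 2.93e-11). Igfbp5 rose by 1.20 from 3 to 7 DPI without overlap (adjusted p = 0.000767), but the value was 0.79 and not called without injured replicate 1 at 3 DPI. With the number range as a covariate it was 1.03 and called (adjusted p = 0.00468), and the 4 muscles at 7 DPI from the range of the 3 DPI muscles held 413 to 615 TPM, against 638 to 1012 TPM in the other 4.

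Igfbp7, a low-affinity relative found in vessel walls and matrix, held 25.3, 56.1, 57.9 and 63.2 TPM in controls. In injured muscle without repair it was measured at 229, 262 and 304 TPM at 3 DPI, 248 to 509 with a median of 370.0 TPM at 7 DPI, 204, 209, 219 and 264 TPM at 14 DPI and 186, 189, 216 and 224 TPM at 28 DPI, again apart from control. The differences were 2.44 ± 0.24, 2.87 ± 0.19, 2.20 ± 0.22 and 2.06 ± 0.22 (adjusted p = 4.44e-16, 5.75e-25, 7.37e-15 and 1.89e-13).

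Igfbp3, the main carrier of IGF1 in blood, held 3.04, 8.46, 8.74 and 10.1 TPM in controls. The injured muscles without repair reached 19, 33.9 and 40.1 TPM at 3 DPI, 20.2 to 52.8 with a median of 34.1 TPM at 7 DPI, 23.1, 24.8, 26.4 and 28.2 TPM at 14 DPI and 16.2, 16.9, 20.2 and 25 TPM at 28 DPI, each above the highest control. The differences were 1.93 ± 0.28, 2.02 ± 0.22, 1.73 ± 0.26 and 1.34 ± 0.26, all called (adjusted p = 1.41e-09, 8.59e-14, 9.52e-09 and 4.62e-06), and with size factors 0.89, 1.04, 1.13 and 0.76, of which those at 3 and 28 DPI were not.

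Igfbp2, a binding protein abundant in fetal tissues, was near the lower end of detection and was listed at 0 in some muscles of other groups. Controls held 0.2, 0.23, 0.24 and 0.32 TPM, and injured muscles without repair held 0.28, 1.53 and 1.54 TPM at 3 DPI, 0.29 to 1.65 with a median of 0.69 TPM at 7 DPI, 0.25, 0.28, 0.32 and 0.49 TPM at 14 DPI and 0.52, 0.54, 0.54 and 0.73 TPM at 28 DPI. The groups overlapped with control at 3, 7 and 14 DPI. The differences were 0.70, 0.51, 0.10 and 0.34, and Igfbp2 was called at none of the 4 days (adjusted p = 0.00539, 0.0103, 0.706 and 0.154). Without injured replicate 2 at 3 DPI it was at 1.02 and called.

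**Figure D3:**
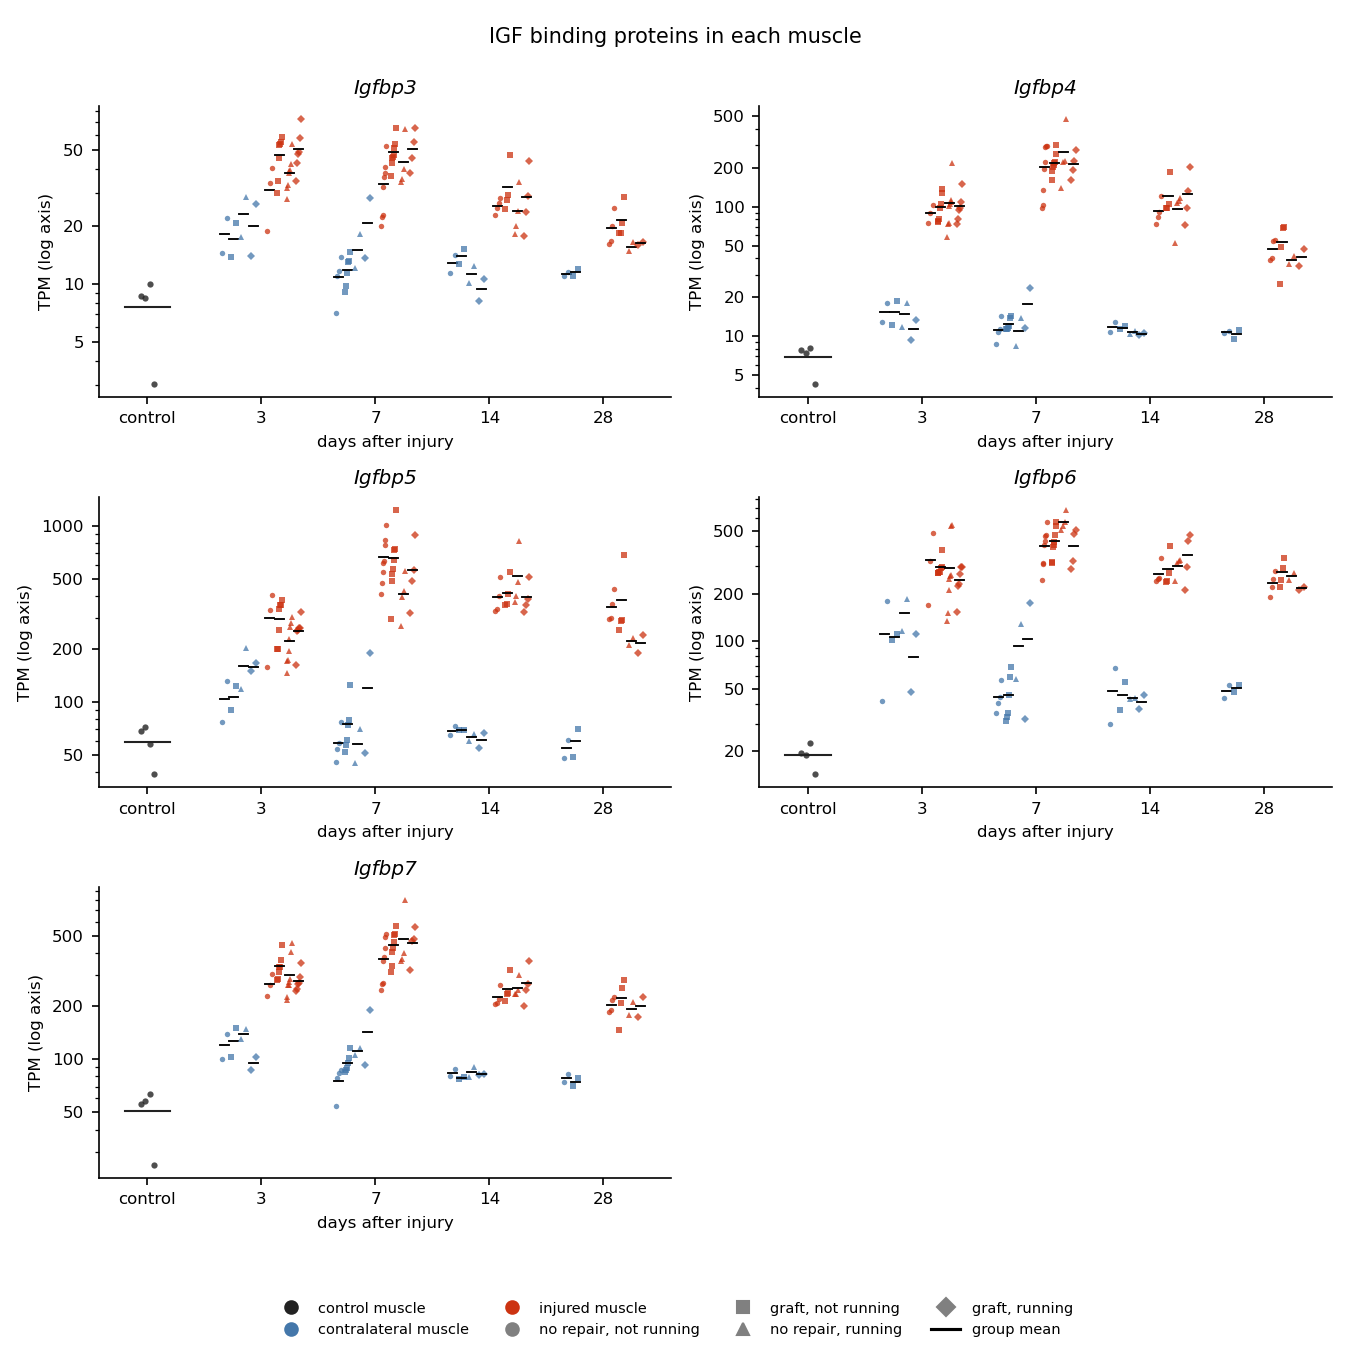
TPM on a log axis of Igfbp3 to Igfbp7 in each muscle by day, with colors and symbols as in the plot of ligands and receptors. Injured muscles (red) stand above controls (black) at all 4 days, and 1 control muscle lies below the other 3 in each panel.

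That control muscle, replicate 4, was the lowest of the 4 controls for 8 of the 10 genes, Igfbp3 for example at 3.04 against 8.46 to 10.1 TPM. Its library was the least complex of those kept, with 7866 symbols above 1 TPM against 8760, 8872 and 8914 in the other controls. The part of this in its values was not tested. Summed over the 6 genes, binding protein TPM was 144 ± 38.4 in controls and 1011 ± 176, 1673 ± 190, 1005 ± 126 and 854 ± 42.4 in injured muscles without repair at 3, 7, 14 and 28 DPI. The summed ligand TPM was 33.6 ± 1.38 in controls and 124 ± 54.3, 417 ± 91.2, 348 ± 19.3 and 221 ± 38.1 in the injured muscles. The ratio of both sums was 4.26 ± 1.02 in controls and 8.98 ± 3.33, 4.13 ± 0.755, 2.88 ± 0.22 and 3.96 ± 0.72 in the injured muscles of the 4 days, a description without a test. Within the binding protein sum, Igfbp7 went from 34.5% ± 3.93 in controls to 22% ± 5.25 at 7 DPI (22.8% to 30.4% in the lowest range of rat numbers, 15.3% to 20.1% in the other 4 muscles) and Igfbp6 from 13.6% ± 2.30 to 23.8% ± 4.64. Igfbp5 held 41.8% ± 4.21 in controls and 40.2% ± 12.6 at 7 DPI, where it ran from 25.2% to 37% in the lowest range and from 44.1% to 62.4% in the other 4 muscles.

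By mean TPM at 7 DPI the order in injured muscle without repair was Igfbp5 (666 ± 199.96), Igfbp6 (401 ± 106), Igfbp7 (369 ± 102), Igf2 (349 ± 78.5), Igfbp4 (203 ± 84.4), Igf1 (67.6 ± 23.1), Igf2r (56.4 ± 5.35), Igfbp3 (33.1 ± 11.1), Igf1r (3.25 ± 0.642) and Igfbp2 (0.824 ± 0.464; SD, n = 8). The ranges of neighbours from Igfbp5 down to Igfbp4 overlapped, as did those of Igf1 and Igf2r and of Igf2r and Igfbp3. Igfbp4 and Igf1 met only at their ends (lowest Igfbp4 97.5, highest Igf1 99.7 TPM), whereas Igf1r lay below every Igfbp3 value and Igfbp2 below every Igf1r value. In controls the order was Igfbp5 (59.5 ± 14.9), Igfbp7 (50.6 ± 17.1), Igf2 (29.8 ± 1.4), Igfbp6 (18.9 ± 3.45), Igf2r (15.9 ± 5.16), Igfbp3 (7.58 ± 3.11), Igfbp4 (6.96 ± 1.78), Igf1 (3.72 ± 0.438), Igf1r (0.885 ± 0.373) and Igfbp2 (0.247 ± 0.0512; n = 4). Ranges there did not overlap between Igf2 and Igfbp6, nor between Igfbp4, Igf1, Igf1r and Igfbp2, and did between the other neighbours.

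Counted together, 8, 9, 8 and 8 of the 10 genes were called higher than control at 3, 7, 14 and 28 DPI and none lower, where 48.3%, 45.6%, 25% and 21.1% of the 11328 tested genes were called higher. With size factors 5, 7, 7 and 6 members were called higher, against 24.1%, 21.7%, 15.7% and 11.4% of all genes. The median difference of the 10 genes was 2.17, 3.16, 2.46 and 2.23, beside the all-gene medians given above. Against the contralateral muscle 6, 9, 7 and 6 members were called higher and none lower (32.3%, 45.3%, 20.9% and 13.1% of all genes), and with size factors 3, 6, 5 and 5 (20.3%, 18.5%, 10.4% and 7.13%). Controls and contralateral muscles were compared with the same injured muscles, so these counts are not independent of each other.

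Between days of injured muscle without repair, 3 of the 10 genes were called higher at 7 than at 3 DPI (Igf2, Igfbp4 and Igfbp5), where 2% of all genes were. From 7 to 14 DPI 1 was called lower (Igfbp4, beside 6.1% of all genes), or 0 with the number range as a covariate, and from 3 to 28 DPI 1 was called higher (Igf2, 4.53%) and 1 lower (Igf1, 24.3%). From 14 to 28 DPI limma called 0 members (0.459% of all genes either way), 0 also with size factors, and 3 had an unadjusted p below 0.05 (13.8% of all genes), Igf1 at -0.63, Igf2 at -0.67 and Igfbp4 at -0.95. The change of the difference from the contralateral muscle between 3 and 28 DPI was 1.23 for Igf2 and 1.18 for Igfbp5 (adjusted p = 0.0589 and 0.085). Of the 10 genes 0 were called there by limma (20.1% of all genes either way), 2 had an unadjusted p below 0.05 (45.8% of all genes), and both were called with size factors, at 1.34 and 1.3, beside 18.6% of all genes.

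Against the contralateral muscle at 7 DPI, the differences were 3.23 for Igf1, 2.49 for Igf2, 1.20 for Igf1r, 1.70 for Igf2r, 1.48 for Igfbp3, 3.95 for Igfbp4, 3.45 for Igfbp5, 3.13 for Igfbp6 and 2.24 for Igfbp7. Their adjusted p ranged from 1.24e-25 for Igf1 to 4.43e-09 for Igfbp3, and Igfbp2 was at 0.59 and not called. At 3 DPI Igf2 differed by 0.95 with overlapping groups and was not called (adjusted p = 0.0233), but it was called at 1.49, 1.27 or 1.07 without contralateral replicate 2, injured replicate 1 or injured replicate 3, and was 0.41 or 0.50 and not called without contralateral replicate 1 or injured replicate 2 (adjusted p = 0.46 and 0.27). Igfbp6 was called at 3 DPI (1.77) although the groups overlapped, the contralateral muscles holding 41.7 and 179.6 TPM. Without contralateral replicate 2 at that day the values of Igfbp6, Igfbp5 and Igfbp7 were 0.73, 1.07 and 0.91 and none was called.

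In 34 rats both muscles were measured, over all arms and days. Igf1, Igf1r, Igf2r, Igfbp4, Igfbp6 and Igfbp7 were higher in the injured muscle in 34 of 34 rats, Igfbp2, Igfbp3 and Igfbp5 in 33, and Igf2 in 32. The median log2 difference within a rat was 3.14 for Igfbp4, 3.03 for Igf1, 2.64 for Igfbp6, 2.56 for Igfbp5, 2.32 for Igf2, 1.63 for Igfbp7, 1.30 for Igf2r, 1.18 for Igf1r, 1.13 for Igfbp3 and 0.43 for Igfbp2. These values are on the deposited scale. There the median of all tested genes without repair or running was 0.54, 0.91, 0.50 and 0.38 above contralateral at the 4 days. The share of all genes higher in as many rats is not given here. Both rats with lower Igf2 on the injured side were rats at 3 DPI, where Igf2 was higher in 6 of 8 rats with a median of 0.21, whereas at 7 DPI it was higher in 14 of 14 with a median of 2.68.

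**Figure D4:**
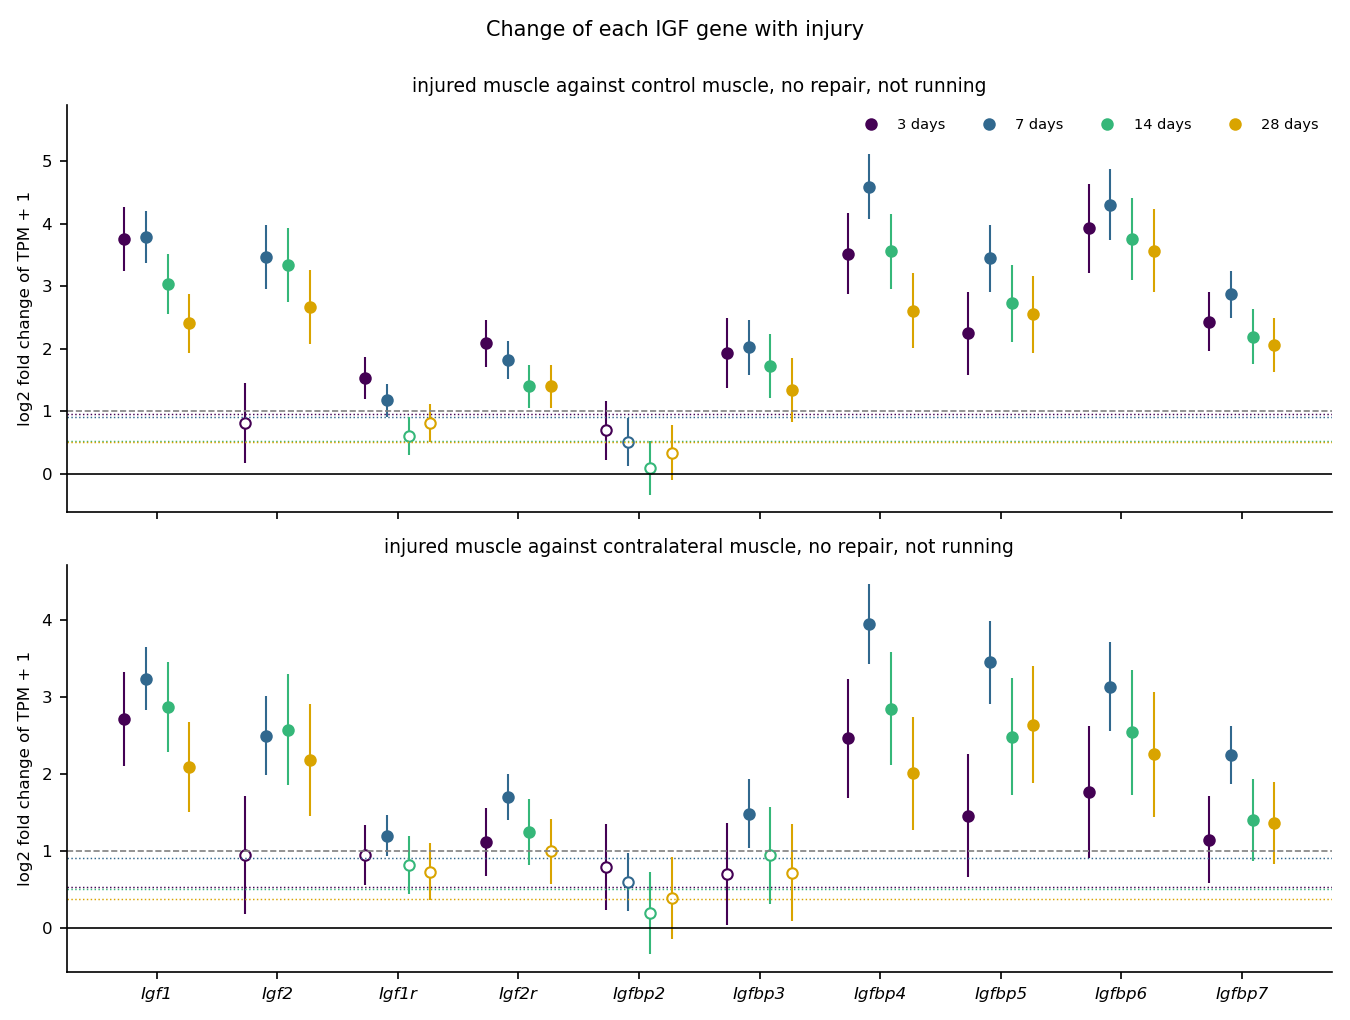
Log2(TPM + 1) difference of injured muscle without repair or running from control (top) and from the contralateral muscle (bottom) for each of the 10 genes at 3, 7, 14 and 28 DPI, with 95% confidence intervals from limma. Filled points were called and open points not, the dashed line is at 1 and the dotted lines are the median of all tested genes at each day. Igfbp4 at 7 DPI is the highest point against control (4.59) and Igfbp2 stays below 1.

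Contralateral muscles were also compared with control, since they come from operated rats. At 3 DPI 5 of the 10 genes were called higher, where 6.37% of all genes were, namely Igfbp6 (2.16, adjusted p = 2.98e-05), Igfbp7 (1.29, 0.000113), Igfbp3 (1.24, 0.00112), Igfbp4 (1.06, 0.0132) and Igf1 (1.04, 0.00277), while Igf2 was at -0.13. This rested on 2 contralateral muscles, with Igf1 at 6.61 and 11.3 TPM. Only Igfbp6 was called with size factors (1.62, beside 2.36% of all genes), 1 gene was called without contralateral replicate 1, 2 without control replicate 4, and 0 with every library kept. The shares of all genes without single muscles or with every library kept are not given here. Beside the calls at 3 DPI, summed fibroblast markers were 649.5 to 1513 TPM in these 2 muscles against 85.0 to 252 in controls and summed macrophage and leukocyte markers 71.7 to 193 against 15.1 to 35.8. The part of these markers in these differences was not tested.

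At 7 DPI Igfbp6 was called (1.17, adjusted p = 0.0167), where 0.636% of all genes were called higher, with 35.2, 40.3, 44 and 56.4 TPM in the 4 contralateral muscles, all above the controls. The call was lost without contralateral replicate 3 (1.05, adjusted p = 0.0773) and with the control muscles averaged per rat (1.16, adjusted p = 0.114), and with all libraries kept the value was -0.23. Of 10 fibroblast markers 5 were called higher than control at this day, their sum being 304 to 548 TPM against 85.0 to 252 in controls, and macrophage and leukocyte markers summed to 48.9 to 65.5 TPM against 15.1 to 35.8. The part of these markers in the Igfbp6 difference was not tested. Igf2 held 41.1, 52.7, 71.9 and 82.7 TPM there, also above every control, with a difference of 0.98 that did not reach the call (adjusted p = 0.0274) and did with size factors (1.00, beside 1.17% of all genes called higher) or without contralateral replicate 3 (1.16). The Igf2 difference was smaller, and so not called, without contralateral replicate 5 or 6, the muscles at 71.9 and 82.7 TPM. At 14 and 28 DPI limma called 0 members, with 4 and 2 at an unadjusted p below 0.05 (14.7% and 11.6% of all genes) and 1 and 0 called with size factors, against 0.653% and 0.185% of all genes called higher, or 1.53% and 0.486% with size factors. Igfbp6 stood at 1.22 and 1.31 on those days (adjusted p = 0.0879 and 0.127).

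The graft was compared with no repair in injured muscle of rats that did not run. At 3 DPI grafted muscles held 62 to 77.1 with a median of 70.6 TPM of Igf1 and 26.2 to 76.4 with a median of 60.6 TPM of Igf2, and at 7 DPI 51.8 to 101 with a median of 80.9 TPM and 264 to 531 with a median of 353 TPM. At 14 DPI Igf1 was at 40.1, 41.8, 46.4 and 71 TPM and Igf2 at 356, 374, 377 and 436 TPM, and at 28 DPI at 16.8, 21.7, 32.6 and 48.5 TPM and 98.6, 160.1, 191 and 231 TPM. These ranges overlapped with those without repair except for Igf2 at 14 DPI, where all 4 grafted muscles were above all 4 without repair with a difference of 0.31 (adjusted p = 0.733). Averaged over the 4 days the difference was 0.26 for Igf1 (95% confidence interval 0.04 to 0.48) and -0.01 for Igf2 (-0.29 to 0.26).

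Igfbp3 had the largest averaged graft difference, 0.40 (0.16 to 0.64, adjusted p = 0.0175), followed on adjusted p by Igf1r at 0.19 (adjusted p = 0.0417), and at 7 DPI Igfbp3 differed by 0.59 (0.22 to 0.95, adjusted p = 0.0322), short of the fold threshold, where 0.0883% of all genes passed both thresholds. Grafted muscles at 7 DPI held 36.5 to 65.3 with a median of 46.8 TPM of Igfbp3 against 20.2 to 52.8 with a median of 34.1 TPM without repair, so the groups overlapped. With limma 0 of the 10 genes passed both thresholds in the average, where 0.0265% of all genes did. Of the 10, 5 had an unadjusted p below 0.05 (45.3% of all genes), and 0 were called with size factors, under which the Igfbp3 difference was 0.28. The intervals of all 10 genes lay within a change of 1 in either direction.

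Grafted muscles differed from their own contralateral group much as muscles without repair did, with 8, 9, 9 and 7 of the 10 genes called higher at 3, 7, 14 and 28 DPI (37.2%, 42.9%, 25.6% and 18.8% of all genes). At 7 DPI the differences were 3.43 for Igf1, 2.58 for Igf2, 4.02 for Igfbp4, 3.07 for Igfbp5 and 3.24 for Igfbp6, and at 3 DPI Igf2 was at 0.74 and not called. With size factors 2, 7, 5 and 5 members were called higher, beside 21.3%, 21%, 13% and 9.54% of all genes. The test of the difference between both injury effects, averaged over days, called 0 of the 10 (0% of all genes), with 0 at an unadjusted p below 0.05 (4.01% of all genes) and 0 called with size factors.

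Running was compared with no running within each arm and day and then averaged. In injured muscle Igf1 of running rats without repair was 68.3, 78.1, 87 and 114 TPM at 7 DPI and Igf2 224, 374, 414 and 468 TPM, within or near the ranges without running. Igfbp5 held 147 to 306 with a median of 211 TPM at 3 DPI and 271, 396, 427 and 558 TPM at 7 DPI in running rats without repair, and 213 and 231 TPM at 28 DPI, below the 4 muscles without running at that day. Averaged over days and both repair arms Igfbp5 differed by -0.32 (-0.54 to -0.10, p = 0.00508, limma adjusted p = 0.129), so it did not pass. Running and number range were unbalanced there, since at 7 DPI all 4 running muscles of each arm came from the lowest range and only 4 of the 8 non-running ones did. With the number range as a covariate the Igfbp5 difference was -0.29 (adjusted p = 0.17). With limma 0 members were called for running in the injured average (0% of all genes) and 0 in the contralateral average, with 1 member at an unadjusted p below 0.05 in each (16.4% and 11.1% of all genes) and 0 called with size factors.

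In running rats the injured muscle was set against the contralateral muscle at 3, 7 and 14 DPI. Of the 10 genes 4, 9 and 8 were called higher without repair (33.7%, 39.9% and 25.7% of all genes) and 6, 9 and 9 with a graft (37.9%, 40% and 23.6%). With size factors these counts were 2, 6 and 5 without repair (21.2%, 20.5% and 12%) and 2, 5 and 6 with a graft (22.5%, 18.9% and 12.6%). The contralateral muscles of grafted running rats at 7 DPI disagreed with each other, at 8.06 and 21.3 TPM of Igf1, 51.3 and 191 TPM of Igfbp5 and 31.9 and 173 TPM of Igfbp6. The muscle with the higher values of these genes also held 2549 TPM of summed fibroblast markers and 161 TPM of macrophage and leukocyte markers, against 582 and 58.5 TPM in the other. With both muscles limma called 0 members for running in that group (0% of all genes), 0 also with size factors, and 3 had an unadjusted p below 0.05 (4.48% of all genes). With the higher muscle alone, which has no replicate, Igf1 and Igfbp6 were called at 1.57 and 1.97, beside 1.2% of all genes, and the part of the markers in these values was not tested.

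**Figure D5:**
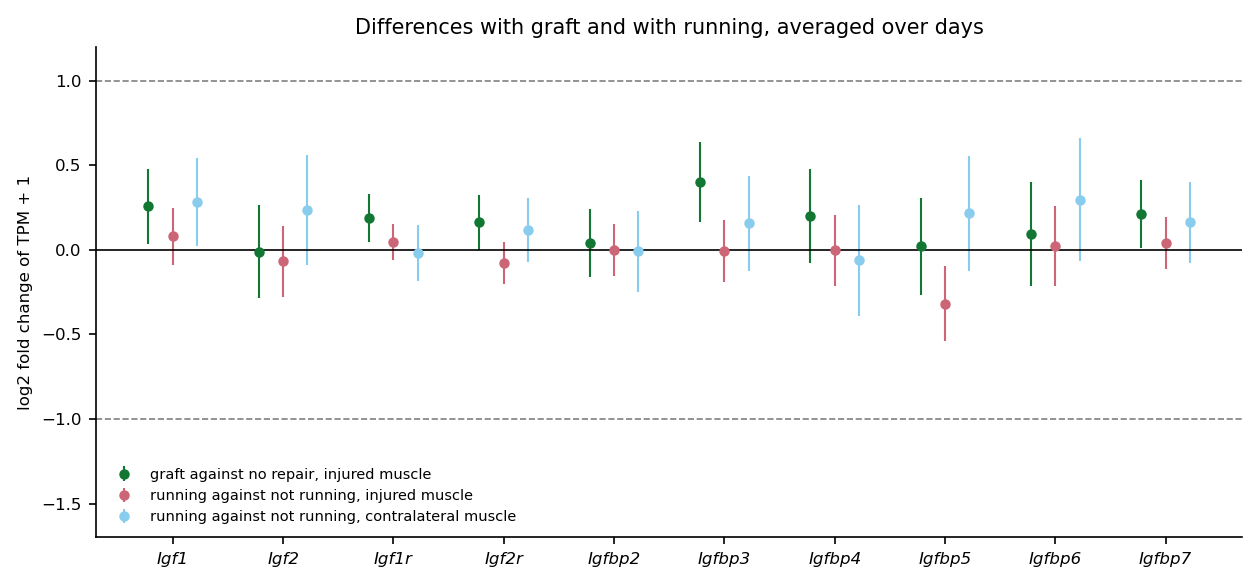
Averaged log2(TPM + 1) differences with 95% confidence intervals for each of the 10 genes, for graft against no repair in injured muscle, running against no running in injured muscle and running against no running in contralateral muscle, with dashed lines at -1 and 1. No difference reaches either line, Igfbp3 for the graft (0.40) and Igfbp5 for running (-0.32) lying farthest from 0 in the injured muscle.

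The wider IGF pathway was followed through 72 further genes, of which 67 were in the table and 61 passed the filter. At 3, 7, 14 and 28 DPI 24, 24, 15 and 11 of the 61 were called higher than control and 5, 4, 0 and 0 lower, where 4.24%, 2.42%, 0.547% and 0.212% of all tested genes were called lower. At each day the share called higher was below that of all genes given above. With size factors 13, 12, 6 and 7 were called higher and 19, 14, 7 and 4 lower. More were then lower than higher at 3, 7 and 14 DPI, but not at 28 DPI. The median of the 61 went from 0.54, 0.65, 0.38 and 0.38 to -0.45, -0.33, -0.23 and -0.24. Proteases of the binding proteins and their inhibitors were called higher under both scalings, 6, 6, 5 and 5 of 9 as deposited and 6, 6, 4 and 4 with size factors, while 0, 1, 0 and 0 and then 1, 1, 1 and 1 were called lower. With size factors 16.7%, 13.9%, 5.73% and 2.97% of all tested genes were called lower.

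The protease Mmp14, a membrane-bound metalloproteinase, was at 2.79 ± 1.14 TPM in controls and 133 ± 18.95 at 3 DPI and 358 ± 139 at 7 DPI in injured muscle without repair, differences of 5.20 and 6.53 (adjusted p = 1.4e-24 and 1.14e-36). Mmp2, gelatinase A, rose by 5.48 at 7 DPI, from 10 ± 3.49 to 496 ± 181 TPM, and Ctsl, a lysosomal cathepsin, by 4.76 at 3 DPI, from 84.6 ± 12.2 to 2310.5 ± 338 TPM. The serine protease Htra1 rose by 3.95 and 3.61 at 3 and 7 DPI. Stc2, an inhibitor of pappalysins, fell by 1.13 at 7 DPI, and against the contralateral muscle it was at -0.93 and not called at that day. Of the 61 genes 1 was called for the graft averaged over days, Mmp9 or gelatinase B, which was higher by 1.05 ± 0.28 with the graft (adjusted p = 0.013, beside 0.0265% of all genes) and by 0.95 and not called with size factors, where 0% of all genes were called. It was chosen after its values were seen. None of the 61 was called for running averaged over injured muscles.

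On the ligand side 2 further genes were tested, and H19, the noncoding RNA neighbouring Igf2, rose by 2.91 at 14 DPI, from 2892 ± 175 to 21752 ± 1091 TPM, and by 2.50 at 28 DPI. Of 12 receptors and adaptors 4, 4, 2 and 1 were called higher and 1, 0, 0 and 0 lower, the shares called higher being below those of all genes. With size factors 1 of them was called higher at each day and 5, 6, 1 and 1 lower. Irs1, the insulin receptor substrate, fell by 1.35 at 3 DPI (adjusted p = 0.000526). Of 24 genes of the PI3K-AKT-mTOR route 9, 8, 4 and 2 were called higher and 1, 1, 0 and 0 lower, and with size factors 2, 1, 0 and 1 higher and 5, 4, 2 and 0 lower, the shares called higher being below those of all genes under both scalings. Of 8 genes of the MAPK branch 3, 3, 2 and 2 were called higher and 1, 0, 0 and 0 lower, and with size factors 2, 2, 0 and 0 higher and 4, 1, 1 and 0 lower. The MAPK shares called higher as deposited were below those of all genes at 3 and 7 DPI.

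Growth hormone, which drives hepatic Igf1, acts through Ghr and is damped by Cish. Of 6 such genes 1 was called higher and 2 lower at 3 and 7 DPI than control and 0 in either direction at 14 and 28 DPI, and with size factors 1, 0, 0 and 0 were called higher and 4, 2, 2 and 2 lower at the 4 days. Ghr, the growth hormone receptor, fell by 1.61 at 3 DPI, from 97.7 ± 19.9 to 32.5 ± 12.1 TPM, and by 1.28 at 7 DPI (adjusted p = 6.35e-13 and 6.82e-13). Cish, a target and inhibitor of the receptor's STAT5 signal, fell by 1.58 and 2.03 (adjusted p = 0.0489 and 0.00165), with a wide spread in controls (61.0 ± 46.4 TPM). Against the contralateral muscle Ghr fell by 1.67 at 3 DPI and was at -0.77 and not called at 7 DPI, while Cish fell by 2.07, 2.19 and 1.95 at 3, 7 and 14 DPI (adjusted p = 0.0368, 0.000702 and 0.0431).

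The genes whose mean log2 levels over the 31 groups went most like each member were found by Pearson's r across groups, which share libraries, scaling and the injury contrast, so r is a description only. For Igf1 they were Serpinb9 (0.994), Tmed3 (0.994) and Itm2c (0.993), and for Igf2 they were Itm2a (0.974), Pamr1 (0.957) and Sema5a (0.957). Fubp1 (0.991) was most like Igf1r and H6pd (0.989) most like Igf2r. Igfbp4 went with Col16a1 (0.996), C1qtnf5 (0.996) and Srpx2 (0.996), Igfbp6 with Serping1 (0.990), Igfbp7 with Mfap5 (0.992), Igfbp5 with Sec1 (0.980), Igfbp3 with Srpx (0.968) and Igfbp2 with Ccl9 (0.947). Among the 10 genes themselves r ran from 0.779 to 0.976 when Igf2 was left out and from 0.418 to 0.807 between Igf2 and the others, 0.697 with Igf1.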

How the data were processed

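The authors pseudo-aligned the reads to the rat genome (build 6.0) with Kallisto at default settings and deposited gene values as TPM in 1 summary table. Reads came from total RNA of whole TA muscles, 76-base paired-end Truseq libraries. Of 138 libraries 9 had contradictory labels and entered no comparison. Libraries with fewer than 7000 symbols above 1 TPM were left out (13), which removed 2 muscles, and libraries of 1 muscle were averaged, leaving 114 muscles. TPM holds no depth, so no counting error could be given. The last of 16182 entries was incomplete and was not used.

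Values were set as log2(TPM + 1), genes with a mean above 1 TPM in at least 1 group were kept (11328), and group means were fitted to all 114 muscles at once in limma 3.58.1 (R 4.3.3, trended empirical Bayes, 83 residual degrees of freedom), with 50 comparisons. The study's thresholds were used, an adjusted p below 0.05 (Benjamini-Hochberg over all tested genes) and a log2 change beyond 1. Alternatives were median-of-ratios size factors, a pseudocount of 0.1, no filter, all libraries kept, single libraries, non-running groups alone, averaged controls, a covariate for the range of rat numbers, a rat block and leaving out 1 muscle. The scripts were tested on simulated data. Permutation tests used scipy 1.17.1, statmod 1.5.0 fitted the block, and Python 3.11.15 with numpy 2.4.6, pandas 2.3.3 and matplotlib 3.10.9 did the rest.

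Injured and contralateral muscles of 34 rats were paired by rat number. Their deviations from group means correlated at a mean r of 0.0944, against -0.00871 over 6405 pairs of different rats. The genes, the pathway and marker lists and the tests were chosen with earlier results of these data known. The text names all 10 members, the pathway genes called at each day with the 3 largest and 3 smallest differences, and the 3 genes most like a member. Protein sequences are not used here.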

Additional observations from a re-analysis of the deposited data

Results flagged for a closer look

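Single muscles stood apart from the rest of their group by Dixon's criterion in 14 of 160 combinations of 1 gene and 1 group of 4 to 10 muscles, where chance flags about 1 in 20. Igfbp5 reached 1235.76 TPM in 1 grafted muscle at 7 DPI (group median 603.3) and 684 TPM in 1 at 28 DPI (group median 292), and 126 TPM in a contralateral muscle of a grafted rat at 7 DPI (67.5), all without running. Igfbp4 reached 184 TPM in a grafted muscle at 14 DPI (102), 216 TPM in an injured muscle of a running rat without repair at 3 DPI (103), and was low at 52.1 TPM in one at 14 DPI (108). Igfbp7 reached 791 TPM in a running rat without repair at 7 DPI (385). Igfbp6 reached 380.1 TPM in a grafted muscle at 3 DPI (276) and 334 TPM in a muscle without repair at 14 DPI (248). Igf2r reached 59.0 TPM in a running rat without repair at 7 DPI (53.3) and 29.1 TPM in a contralateral muscle of a grafted rat at 7 DPI (21.8). Igfbp2 was low at 0.36 TPM in a grafted muscle at 14 DPI (0.67) and 0.44 TPM in one at 28 DPI (0.63), and high at 0.73 TPM in a muscle without repair at 28 DPI (0.54).

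Of the 9 libraries in no comparison, 8 came from running rats at 28 DPI and carry opposite sides in title and label. Highest among these 8 were 30.6 TPM of Igf1, 157 TPM of Igf2 and 273 TPM of Igfbp5, not all in the same library. The highest controls stood lower, at 4.23, 31.3 and 72.7 TPM.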

How the results depend on the processing

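Of 500 differences of the 10 genes in 50 comparisons, size factors left 440 on the same side of the call, ended 56 and added 4. No filter, single libraries and the replicate block by rat each kept all 500. Keeping all libraries reversed the contralateral difference from control at 7 DPI for Igf2r (-1.11 against 0.12) and Igfbp6 (-0.23 against 1.17), and with size factors added (chosen after seeing the data) that of running in contralateral muscle without repair at 7 DPI for Igfbp4 (1.39 against -0.04). Counts of called members that moved by more than 1.5 times are given here, and smaller moves under size factors stand beside the counts above. Size factors, alone or with the replicate block by rat (the pair chosen after seeing the data, within-rat correlation 0.0806 against 0.026), gave 5 in place of 8 against control and 3 in place of 6 against contralateral at 3 DPI, 2 in place of 8 and 5 in place of 9 in grafted muscle at 3 and 14 DPI, 1 in place of 5 and of 0 for contralateral muscle at 3 and 14 DPI, 0 in place of 1 for 14 against 7 DPI, 1 in place of 2 for 28 against 3 DPI, and 2 in place of 0 (Igf2 and Igfbp5) for the injury effect at 28 minus 3 DPI. In running rats they gave 2 in place of 4 and 5 in place of 8 without repair at 3 and 14 DPI, and 2 in place of 6 and 5 in place of 9 with a graft at 3 and 7 DPI. Without the block, size factors gave 2 in place of 1 for contralateral muscle at 7 DPI. All libraries kept gave 3 against contralateral at 3 DPI, 0 and 2 for contralateral muscle at 3 and 7 DPI, 1 in place of 3 for 7 against 3 DPI and 0 for 14 against 7 DPI. With size factors as well it gave 0, 0, 1 and 0 for the last 4 and 2 in place of 0 for running in contralateral muscle without repair at 7 DPI. The adjusted p alone gave 8 in place of 4 for running rats without repair at 3 DPI, 2 for contralateral muscle at 7 DPI, 1 and 2 in place of 0 for the graft at 7 DPI and averaged, 7 for 14 against 7 DPI and 5 for 28 against 3 DPI. In running rats without repair at 3 DPI, 78.4% of all genes had an unadjusted p below 0.05. A pseudocount of 0.1 gave 2, 1 and 1 for contralateral muscle at 7, 14 and 28 DPI, non-running groups alone gave 1 at 14 DPI, averaged controls gave 0 at 7 DPI, and the range of rat numbers gave 0 for 14 against 7 DPI, the 1 of 40 counts it moved. The range could not be fitted for the 8 comparisons with control or for 28 against 3 and 28 against 14 DPI, where day and range cannot be told apart. Leaving out 1 muscle in each group of 2 to 5, in 71 fits, gave 1 to 7 for contralateral muscle at 3 DPI (1 without contralateral replicate 1, 2 without control replicate 4), 1 to 2 at 7 DPI (2 without contralateral replicate 4), 0 to 1 for 14 against 7 DPI, 0 to 2 for running in contralateral muscle of grafted rats at 7 DPI, and 0 to 2 for the injury effect at 28 minus 3 DPI (1 without contralateral replicate 1 at 3 or 28 DPI, 2 without injured replicate 2 at 3 DPI). Against contralateral at 3 DPI it gave 4 (without contralateral replicate 2) to 8 in place of 6. Where 1 muscle was left in a group, it was assumed to vary like the others. The cause of these moves was not tested. Except where stated, the shares of all genes under these settings are not given, so the counts describe the members alone. The small groups of 2 contralateral muscles and 4 control muscles of 2 rats limit the precision.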

Other observations

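The 9 libraries with contradictory labels gave these values. In the 4 running libraries at 28 DPI labelled VML but titled as the control side, Igf1 was 11.5 to 30.6 TPM, Igf2 123 to 157 TPM, Igfbp4 27.5 to 49.9 TPM, Igfbp5 224 to 273 TPM and Igfbp6 178 to 305 TPM. In the 4 labelled NoVML but titled as injured, Igf1 was 2.28 to 8.35 TPM, Igf2 32.9 to 39.7 TPM, Igfbp4 8.4 to 10.9 TPM, Igfbp5 35.1 to 67.2 TPM and Igfbp6 34.95 to 62.0 TPM. Of the 10 genes the ranges overlapped for 1, Igfbp2 (0.43 to 0.62 against 0.1 to 0.5 TPM), and not for the other 9. The share of all genes without overlap is not given here, so this count only describes these libraries. The remaining library, labelled for 3 DPI with a conflict in its day, held 10.6 TPM of Igf1, 70.5 TPM of Igf2, 18.5 TPM of Igfbp4 and 94.6 TPM of Igfbp5.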
